A study of Drosophila melanogaster with 4 samples.

Results

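Clusters of RNA polymerase II with phosphoserine 5 that a rule by position ties to genes for spliceosomal small nuclear RNAs (snRNAs) are the subject here. They are 7 of the 5309 enriched clusters of the combined list, and each matched 1 of the 5091 clusters of ChIP replicate 1 and 1 of the 4876 clusters of ChIP replicate 2. The clusters were chosen by position from among the highest scoring clusters of the combined list, so their scores and ranks are a description. The 6 gene names attached to them were snRNA:U1:21D, snRNA:U2:34ABa (for a pair of clusters), snRNA:U4:38AB, snRNA:U4:39B, snRNA:U1:95Ca and snRNA:U5:63BC. Chromatin came from CME-W1-Cl.8+ (Clone 8) cells, a Drosophila melanogaster line that the labels trace to the dorsal mesothoracic disc of male larvae of the third instar. The series holds 2 libraries of DNA precipitated with the rabbit polyclonal antibody ab5131, raised to the heptad repeat of the polymerase with phosphate on serine 5, and 2 libraries of input DNA from the same line. The labels name no treatment, genotype or transgene, and all chromatin was fixed with formaldehyde at 1.8% for 10 min. The labels do not say whether the replicates were separate cultures. The input libraries have no list of clusters among the lists at hand, and the read depth of the libraries is unknown.

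The spliceosome removes introns with the help of short, abundant, non-coding RNAs. U1 pairs with the 5′ splice site, U2 with the branch point, U4 is base-paired to U6 before the spliceosome becomes active, and U5 holds the exons together. In animals U1, U2, U4 and U5 are transcribed by RNA polymerase II from compact promoters with a proximal sequence element, while U6 is transcribed by RNA polymerase III. The genes have no introns, and the Integrator complex cuts their transcripts near the 3′ end in place of polyadenylation. Phosphorylation of serine 5 marks the polymerase around initiation.

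The gene names were checked against the gene table at hand, which follows release 6 of the genome, whereas the cluster lists are on FlyBase release 5. Positions were therefore not compared, and the check used gene names, gene order and the spacing between genes on the same arm. Genes on 2R were left out of the count. On the other arms the table held 32 genes whose symbols begin with snRNA:, from 71 to 444 bp long. Among them were 5 for U1, 6 for U2, 3 for U4, 7 for U5 and 3 for U6. All 6 names were in the table. On 2L, the centres of the 21D cluster, both 34AB clusters and the 39B cluster stood as far from each other as snRNA:U1:21D, snRNA:U2:34ABb, snRNA:U2:34ABc and snRNA:U4:39B do in the table. In all 6 pairs the spacings differed by at most 0.283 kb, over distances of 28.7 to 20313.5 kb between cluster centres. The genes for both 34AB clusters were picked by spacing among candidates, so a match in their pairs follows largely from that choice. With snRNA:U2:34ABa, the rule's label, the lower 34AB cluster was off by 4.07 kb against 21D. The pairs share clusters and are not independent, and the remaining cluster of the rule on this arm is treated below. The 21D and 39B clusters, at opposite ends of the arm and under the rule's own names, differed from the gene spacing by 0.0085 kb. Spacing can change between releases where sequence gaps were closed, so this is a check of the names and no annotation of the clusters.

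The check went against a pair of the labels. The lower 34AB cluster had the spacing of snRNA:U2:34ABb: from the higher 34AB cluster it lay 28.7 kb away, where the table puts 28.5 kb between snRNA:U2:34ABb and snRNA:U2:34ABc and 32.4 kb between snRNA:U2:34ABa and snRNA:U2:34ABc. In the table snRNA:U2:34ABc is directly followed by snRNA:U5:34A, and the lists cannot tell a U2 from a U5 gene under the higher cluster. The cluster that the rule ties to snRNA:U4:38AB, at 20.16 Mb of 2L, was 1055.66 kb from the 39B cluster, while snRNA:U4:38AB is 1404.3 kb from snRNA:U4:39B in the table. Against the genes of all other members on the arm the mismatch was 344.6 to 348.8 kb, and none of the 6 pairs with this cluster came within the widths of the clusters. This cluster is called the 20.16 Mb cluster below, with no gene name, and the summaries of width, edges and distance are given without it as well. For snRNA:U1:95Ca on 3R and snRNA:U5:63BC on 3L no second member lay on the arm, and these names were not checked by spacing between members.

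The strongest of these sites was the lower 34AB cluster, at 2L 13214654 to 13217422 in the combined list. It scored 4.56 in replicate 1 and 4.22 in replicate 2, against 4.37 for the combined list, and it ranked 1st of the 5091 clusters of replicate 1 and 2nd of both other lists. Scores are the authors' values, their scale is not stated in the sources at hand, and ranks were therefore taken within each list. The gene with the matching spacing, snRNA:U2:34ABb, is a U2 gene of 192 bp between kek4 and CG9426 in the table. The higher 34AB cluster, from 13243268 to 13246110, scored 4.16 and 4.12 in replicates 1 and 2 and 4.14 in the combined list. It was thus below its neighbour by 0.40 in replicate 1 and by 0.10 in replicate 2, at ranks 6 and 5.

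Both clusters named for U1 genes stood high, and the one at 95C was the higher in each list. The 95C cluster, at 3R 19683870 to 19686606, scored 4.22 and 4.15 in replicates 1 and 2 and 4.18 in the combined list. Its ranks were 5, 4 and 4. In the table snRNA:U1:95Ca lies between CG34355 and Pli and is 164 bp long. The 21D cluster, at 2L 900274 to 902770, scored 3.63 and 3.60 in replicates 1 and 2 and 3.60 in the combined list, with ranks of 14, 16 and 13. snRNA:U1:21D has the same length as snRNA:U1:95Ca and lies next to Lsp1beta and scaRNA:MeU1:95C-A24, a gene for a guide RNA. U1 genes are near-identical copies, and the sources at hand do not state how reads with several matches were placed, so the level of a single copy is uncertain for every cluster described.

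The clusters named for U4 and U5 genes at 39B and 63BC also ranked within the 10 highest of each list. The cluster at 39B, 2L 21213722 to 21216374, scored 4.39 and 4.11 in replicates 1 and 2 and 4.23 in the combined list, with ranks of 3, 7 and 3. snRNA:U4:39B, of 143 bp, lies inside Atg18b in the table. The cluster at 63BC, 3L 3089642 to 3092284, scored 4.29 and 3.90 in replicates 1 and 2 and 4.08 in the combined list, with ranks of 4, 8 and 7. snRNA:U5:63BC, the shortest of the assigned genes at 123 bp, lies between PAN3 and Cht7. The 20.16 Mb cluster, 2L 20158266 to 20160506, was the lowest of the 7 in each list, with scores of 3.60, 3.41 and 3.52 and ranks of 16, 23 and 14.

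By score the clusters fell into a group of 5 and a group of 2. In the combined list the 5 clusters at 34AB, 39B, 95C and 63BC scored 4.08 to 4.37 and were all among the 10 highest, whereas the 21D and 20.16 Mb clusters scored 3.60 and 3.52. The gap between these groups appeared in both replicates, and the order within the upper group did not: replicate 1 gave 34AB lower, 39B, 63BC, 95C and 34AB higher, and replicate 2 gave 34AB lower, 95C, 34AB higher, 39B and 63BC. Only the lower 34AB cluster kept its place at the head of the members in both. Rank shifts between the replicates were 1 to 4 for the 6 named clusters and 7 for the 20.16 Mb cluster. The cluster just above the members in the combined list, on 2R, scored 4.48, and the cluster just below them, on 2L, scored 3.518 against 3.522 for the 20.16 Mb cluster. The median over all 5302 other clusters was 1.03.

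**Figure D1:**
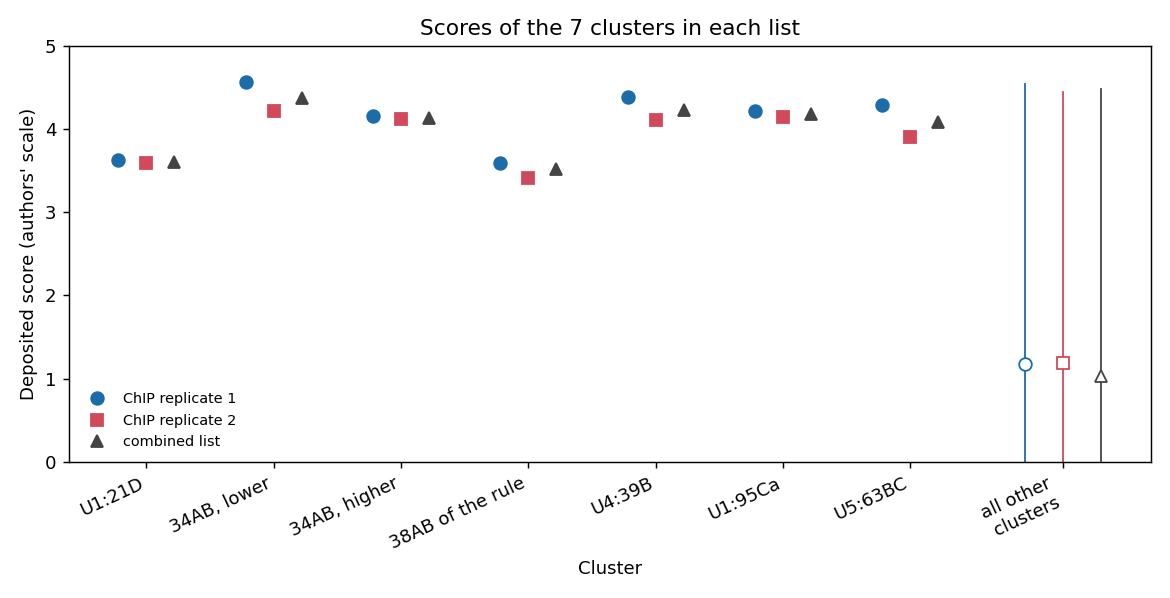
Deposited scores (authors' scale, y axis) of the 7 clusters in the lists of ChIP replicates 1 and 2 and in the combined list. Open symbols and lines at the right give the median and the range of all other clusters. The 7 clusters lie between 3.41 and 4.56, and the medians of all other clusters are 1.17, 1.19 and 1.03.

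The 7 clusters were alike in width, and their median width was close to that of the other clusters. Combined-list widths were 2.497 kb at 21D, 2.77 and 2.84 kb at 34AB, 2.24 kb for the 20.16 Mb cluster, 2.65 kb at 39B, 2.74 kb at 95C and 2.64 kb at 63BC. Their median was 2.65 kb, against 2.63 kb for all other clusters. The SD was 0.202 kb, a coefficient of variation of 7.71%, against 120% for all others. Without the 20.16 Mb cluster the SD was 0.121 kb and the coefficient of variation 4.48%. By width they ranked between 2414 and 3410 of 5309, in the middle of the list, while by score they ranked between 2 and 14. Their median width was 2.66 kb in replicate 1, against 2.53 kb for the other clusters, and 2.63 kb in replicate 2, against 2.60 kb.

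Clusters with scores as high were mostly wider. In the combined list 6 other clusters had scores between those of the lowest and the highest member, and their widths ran from 3.08 to 12.3 kb with a median of 5.46 kb. All 6 were wider than the widest of the 7 clusters, and the ratio of the medians was 0.486. The separation was less complete in the replicate lists. Of 9 other clusters in the same score range of replicate 1, 2 were narrower than the widest member (ratio of medians 0.673), and of 15 in replicate 2, 3 were (ratio of medians 0.615). Without the 20.16 Mb cluster the ratios were 0.494 in the combined list, 0.606 in replicate 1 and 0.409 in replicate 2, and 0 of 6, 1 of 8 and 1 of 9 other clusters were narrower than the widest member. The members were picked for their score, so no test was made of this difference. The contrast did not extend to scores just below that range. In the combined list the 65 other clusters scoring 3 to 3.5 were 2.80 kb wide by median. The 184 scoring 2.5 to 3 were 2.77 kb wide, and the 478 scoring 2 to 2.5 were 3.93 kb wide. With the members at 2.65 kb, a narrow width at a high score was thus not particular to them.

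Read the other way, these were the highest scoring clusters of their width in the combined list. The members were picked for high scores and set the width range, so this follows largely from the choice and is a description. In the combined list 1004 clusters (18.9%) were between 2.24 and 2.84 kb wide, and the 7 clusters held the 7 highest scores among them. The other 997 had a median score of 1.27 and a highest score of 3.45. In replicate 1, 2 of 1197 other clusters of this kind of width scored above the lowest member, and in replicate 2, 3 of 1144 did. Without the 20.16 Mb cluster the width range was 2.497 to 2.84 kb, and 384 other clusters of the combined list fell in it, none scoring above the lowest of the remaining 6 members. The same held for 454 other clusters of replicate 1, and in replicate 2 it held for all but 1 of 398. The lower quartile of width was similar at each score level above 2, at 2.42 kb for 478 other clusters with scores of 2 to 2.5, 2.37 kb for 184 with scores of 2.5 to 3 and 2.39 kb for 65 with scores of 3 to 3.5. The 6 clusters with a gene name were wider than these quartiles, and the 20.16 Mb cluster, at 2.24 kb, was narrower. Among the 7, the pair with the lowest scores were also the narrowest.

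**Figure D2:**
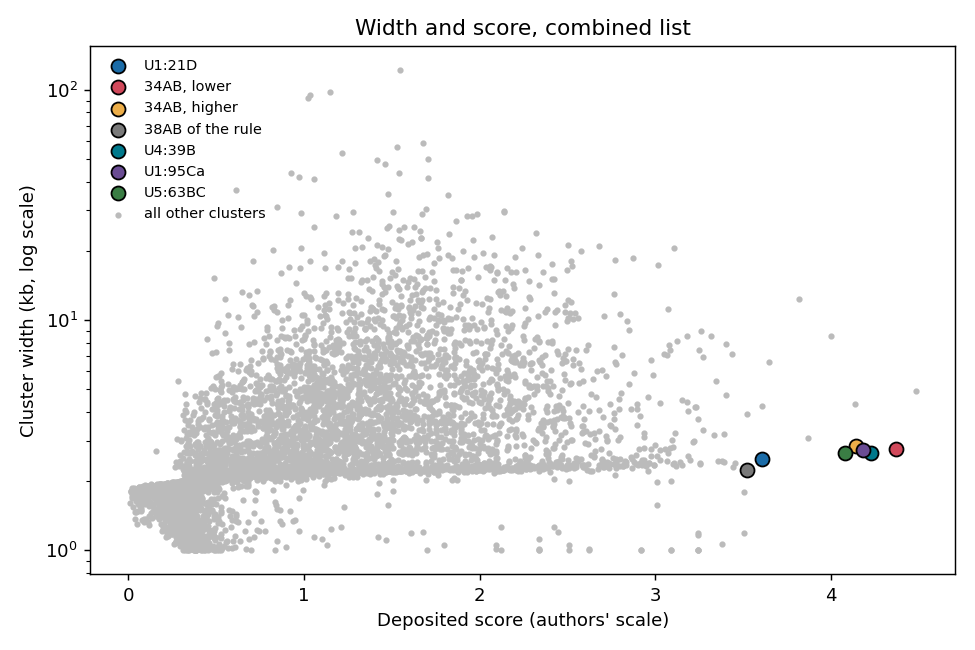
Width (kb, log scale, y axis) against deposited score (authors' scale, x axis) for the 5309 clusters of the combined list. The 7 coloured clusters, 2.24 to 2.84 kb wide, lie at scores of 3.52 to 4.37, where the 6 other clusters of that score range (grey) are 3.08 to 12.3 kb wide.

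The clusters were many times longer than the genes they were named for. For the 6 clusters with a gene name, width was 14.4 times the length of the gene for snRNA:U2:34ABb and 14.8 times for snRNA:U2:34ABc, or 22.4 times if the higher 34AB cluster is set against snRNA:U5:34A, of 127 bp. It was 15.2 times for snRNA:U1:21D, 16.7 times for snRNA:U1:95Ca, 18.6 times for snRNA:U4:39B and 21.5 times for snRNA:U5:63BC. Neither the length of the sonicated fragments nor the settings of the caller are stated in the sources at hand, so a cluster's edge does not show how far the polymerase reached.

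All 7 clusters were found in both replicates, where 79.8% of the combined-list clusters were, and all 7 matched a single cluster in each replicate one to one, where 68.3% did. The members were picked for high scores, and the combined list shares its clusters with the replicate lists, so nothing is read from these counts. The rule's positions are the edges of these clusters in the combined list, so the count of edges that follows is also a description. All 7 had both edges within 100 bp of each other in the replicates, against a background of 42.9% of the 3927 clusters that overlapped one to one.

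Edges differed between the replicates by 0 to 39 bp. At 39B the deposited start was the same base in both replicates and the end differed by 6 bp. For the 95C cluster the start differed by 2 bp and the end by 19 bp, and at 21D by 18 and 5 bp. At 34AB the differences were 29 and 31 bp for the lower cluster and 5 and 8 bp for the higher, and at 63BC they were 39 and 19 bp. For the 20.16 Mb cluster they were 2 and 9 bp. The median over the 14 edges was 8.5 bp (13 bp without the 20.16 Mb cluster), against 57 bp over the 7840 edges of the other one-to-one clusters.

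In relation to clusters of like rank the contrast was smaller. The 8 other one-to-one clusters that ranked between the members in replicate 1 had a median edge difference of 22 bp, and 4 of them had both edges within 100 bp. Width averaged 2.63 ± 0.0042 kb at 39B, 2.83 ± 0.0092 kb for the higher 34AB cluster, 2.70 ± 0.012 kb at 95C, 2.47 ± 0.016 kb at 21D, 2.63 ± 0.041 kb at 63BC and 2.75 ± 0.042 kb for the lower 34AB cluster (SD, n = 2 each). The replicates shared 97.8 to 99.8% of the bases that a member's clusters covered together, with a median of 99.2% (99.15% without the 20.16 Mb cluster). The median was 94.5% for all other one-to-one clusters and 97.75% for the 8 of like rank, so here too the contrast was smaller at like rank. The differences in width between 21D, 39B and the higher 34AB cluster were thus larger than the spread between the replicates, whereas 39B and 63BC did not differ beyond it.

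**Figure D3:**
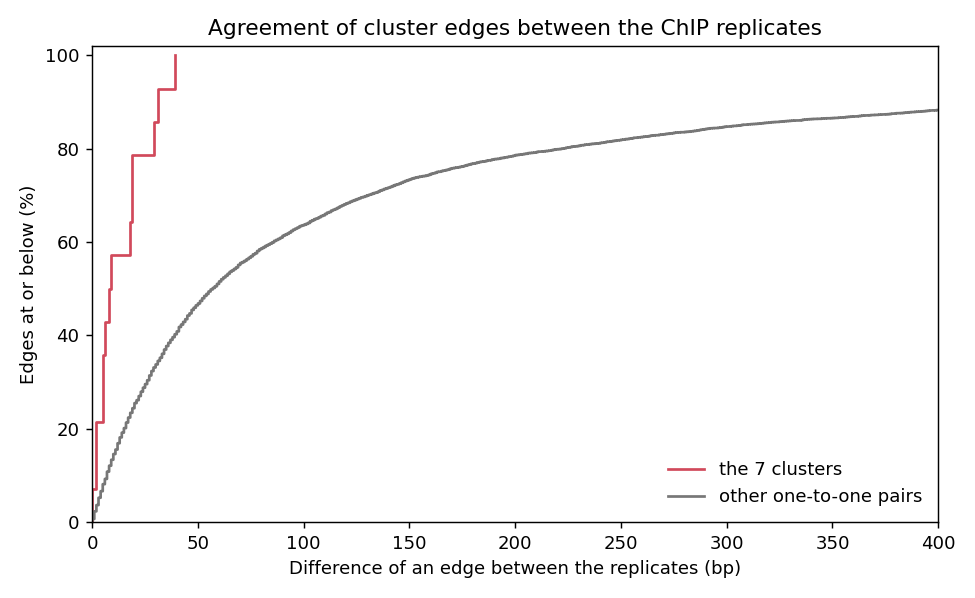
Share of cluster edges (%, y axis) that differed between ChIP replicates 1 and 2 by no more than the distance on the x axis (bp, shown to 400). All 14 edges of the 7 clusters lie at or below 39 bp, while the median of the other one-to-one clusters is 57 bp.

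Each cluster stood above the clusters directly next to it. The 14 clusters next to a member on either side all scored lower than that member in each of the 3 lists, by 0.52 to 3.99 in the combined list with a median of 2.16. The smallest step was at 21D, where a 7.41 kb cluster with a score of 3.08 lay 24.7 kb away on the lower side, and no other cluster followed for 174 kb on the higher side. At 63BC the next clusters, at 6.85 and 20.3 kb, scored 2.02 and 0.57. At 39B a 5.46 kb cluster with a score of 0.84 began 1.05 kb beyond the member, and the next on the other side lay 32.6 kb away with a score of 1.37. Since the members were picked for high scores, these steps describe the surroundings and are no test.

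Other clusters lay close by at 34AB. The lower cluster had an 11.1 kb cluster with a score of 2.44 at a distance of 1.43 kb and a 2.19 kb cluster with a score of 0.97 at 1.32 kb on the other side. The higher cluster lay 0.177 kb from a 2.23 kb cluster with a score of 2.17. A cluster with a score of 1.04 began 27 bp from the 20.16 Mb cluster in the combined list, and neither replicate list held a cluster that close to it. The median distance from a member to the nearest other cluster was 1.32 kb in the combined list, against 2.08 kb for all other clusters. It was 6.84 kb in replicate 1 and 5.95 kb in replicate 2, against 2.17 and 2.56 kb, and 4.08 kb in the combined list without the 20.16 Mb cluster, so that whether the members were more or less isolated than other clusters depended on the list.

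**Figure D4:**
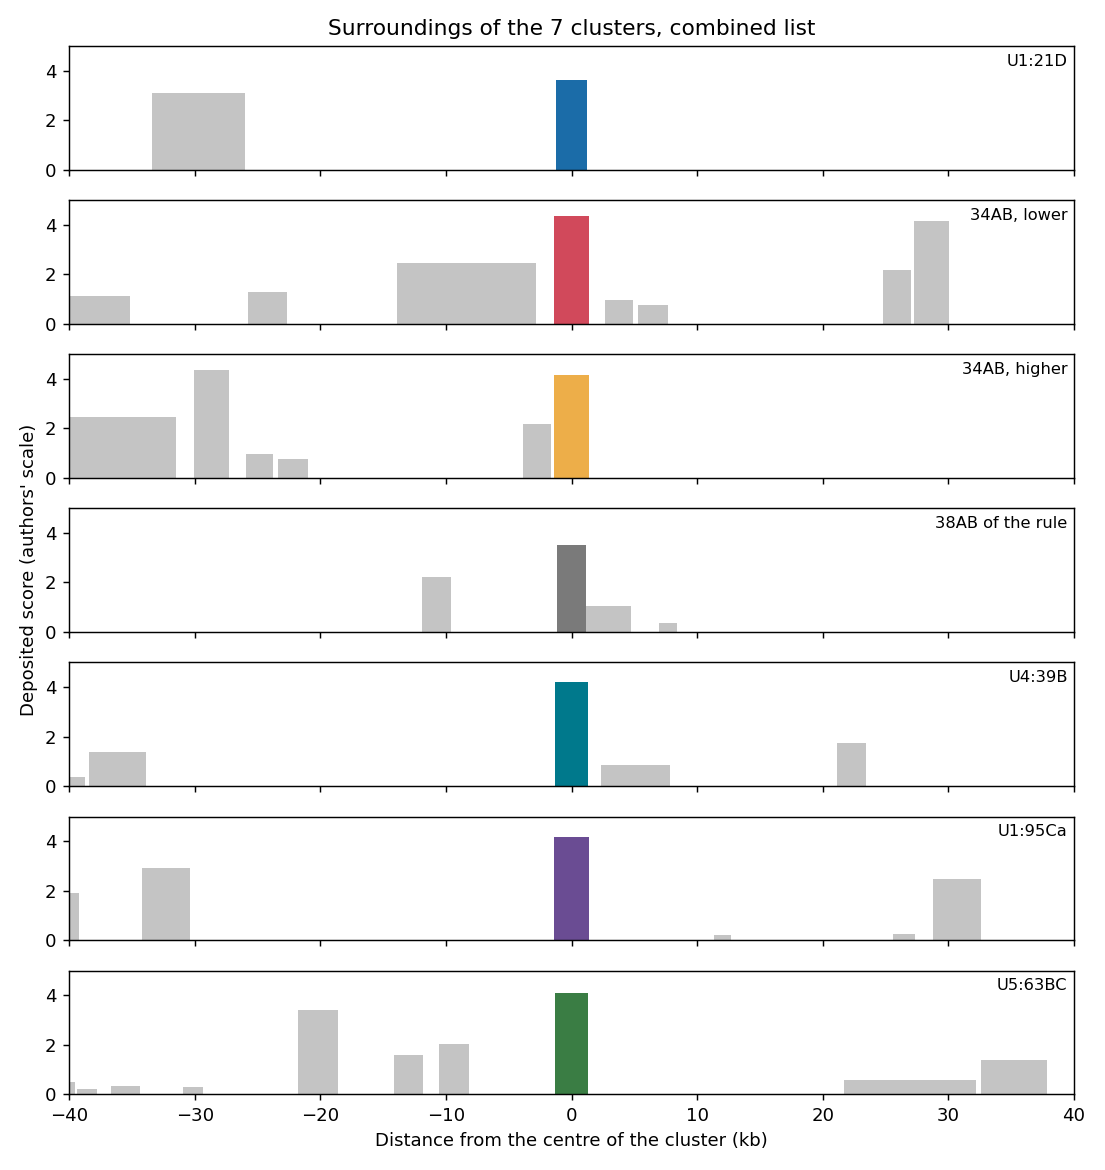
Combined-list clusters within 40 kb of the centre of each of the 7 clusters (x axis, kb), drawn at their width with the deposited score as height (y axis). The cluster itself is coloured and its neighbours are grey, and each 34AB panel shows the other 34AB cluster in grey. Every coloured cluster is higher than the clusters next to it.

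Further snRNA genes of the same bands had lower scoring clusters at the matching spacing, and these clusters were looked for after the values had been seen. The members were picked for high scores, so the lower scores of these clusters follow largely from that choice. Clusters of snRNA genes in other bands were not looked for. On 3R the cluster next to 95C on the lower side, from 19651008 to 19654826, scored 2.94 and 2.88 in replicates 1 and 2 and 2.91 in the combined list. Its centre was 32.3 kb from that of the 95C cluster, and the table puts snRNA:U1:95Cb 31.6 kb and snRNA:U1:95Cc 33.1 kb from snRNA:U1:95Ca, so that 1 cluster of 3.82 kb spanned the spacing of both genes. Its score was thus below that of the 95C cluster by 1.27 in the combined list. The 11.1 kb cluster below 34AB covered the spacing of snRNA:U2:34ABa, 3.91 kb from snRNA:U2:34ABb, but it is broad enough to hold other genes as well. In the table CG15482 is the next gene on that side of snRNA:U2:34ABa.

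The spacing of the 38AB genes led to another pair of clusters. In the table snRNA:U4:38AB is followed in order by snRNA:U5:38ABa, snRNA:U2:38ABb, CG13962, snRNA:U2:38ABa and snRNA:U5:38ABb, and all 5 snRNA genes lie inside sick. A 4.35 kb cluster from 19809662 to 19814012 of 2L had its centre 1403.21 kb from that of the 39B cluster, where the table gives 1404.3, 1403.1 and 1402.4 kb for the first 3 of these genes. It scored 3.04 and 3.02 in replicates 1 and 2 and 3.02 in the combined list, with ranks of 79, 83 and 75. A 3.00 kb cluster from 19814526 to 19817528 stood 1399.0 kb away, against 1399.4 and 1398.6 kb for the last 2 genes, and scored 2.501 and 2.65 in replicates 1 and 2 and 2.52 in the combined list. Both were below all 7 clusters of the rule in each list, and both were above the median of the other clusters. The rule drew on the highest scoring clusters, so the place of both below its members follows largely from that choice.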

How the data were processed

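The submitters' processing notes name Bowtie 0.12.7 as the aligner. The authors deposited regions of significant enrichment on FlyBase release 5, with a score per region, per the file headers. The caller, its threshold, read filters, the use of input, the scale of the score and the making of the combined list are not stated in the sources at hand. Depth is unknown, so no interval was given. Regions marked as depleted, 1 in replicate 2 and 18 in the combined list, were left out.

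The members are the clusters that overlap the positions of the rule by at least 1 bp in each list. Members and lists were chosen with earlier results of these data known, so members were set beside the other clusters as a description, without tests. Named genes are the 6 of the rule, the other snRNA genes of the same bands and the genes next to them, with the clusters flanking each member. Gene names, lengths and spacing came from the RefSeq table of release 6, whose coordinates were not converted. Overlap, gap, merging and rank functions were tested on simulated clusters. Scripts ran in Python 3.11.15 with pandas 2.3.3, numpy 2.4.6 and matplotlib 3.10.9. Planned promoter motifs were not computed. Alternatives covered overlap rules, merging within 1 kb, the upper 50% of each list by score, the large arms, each replicate alone and, added after seeing the data, the members without the 20.16 Mb cluster.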

Additional observations from a re-analysis of the deposited data

How the results depend on the processing

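Of 27 alternative values for 6 results, 15 stayed within the spread between the replicates (for edges, the SD over the members' edges) or, for counts, within 1.5 times, and 12 moved by more. Found in both replicates were 7 clusters under each rule run and 6 without the 20.16 Mb cluster. The median score rank was 5, and 5 to 7 with a replicate left out, which here means the list of the other replicate. The median width of 2.65 kb became 2.74 kb with merging within 1 kb and 2.695 kb without the 20.16 Mb cluster, and 2.63 to 2.66 kb with a replicate left out. The ratio of member width to that of other clusters in the score range, 0.486, became 0.627 for clusters within 10 ranks of a member, 0.401 on the large arms alone and 0.615 to 0.673 with a replicate left out, and stayed below 1 under all 7 alternatives run. The median distance to the next cluster, 1.32 kb, became 6.845 kb in the upper 50% of the list, which drops neighbours by construction, 4.08 kb without the 20.16 Mb cluster and 5.95 to 6.84 kb with a replicate left out, and the order of members and other clusters turned round (members nearer in the combined list, at 1.32 against 2.08 kb, and farther in both replicates). Apart from what construction fixes, the cause was not tested. The alternatives for promoter motifs were not run. No paired analysis was possible because no result came from a test. Depth limits what the lists hold, and no limit could be computed from it.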
